A study of Mus musculus with 8 samples.

Results

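The aldo-keto reductases described here are 7 human genes, AKR1A1, AKR1B1, AKR1B10, AKR1C1, AKR1C2, AKR1C3 and AKR7A2, taken by gene symbol. They come from the 58304 genes kept of a table of 58825, after Y-linked genes, XIST and TSIX were dropped. They were chosen by symbol with their FPKM and counts in rFGF4 against PBS already known, so these values selected them. Their differences between the groups are given as a description, with no p-value for any of them. Test calls for them appear only as counts, from which nothing is read. The series labels 8 RNA-seq libraries, 4 from skin wounds given rFGF4 (recombinant fibroblast growth factor 4) and 4 from skin wounds given PBS. Per the labels, every library comes from C57BL/6 mice of 6 to 8 weeks with no altered allele named, and the RNA from a 2 mm margin of the wounds at day 6. All 58825 gene identifiers of the table are human and 0 are mouse, so nothing is attributed to mouse wounds. The columns of the table are headed C and FGF4 and were taken, by name only, as the libraries labelled PBS and rFGF4. Which cells the table comes from is not stated in those sources. The labels do not say whether the replicates come from separate animals or cultures, so SDs and p-values measure the spread between these libraries, which may be technical.

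Aldo-keto reductases are cytosolic enzymes that use NADPH to reduce aldehydes and ketones to alcohols. Their substrates include sugars, products of lipid peroxidation, retinal, steroids and prostaglandins. In human epithelial cells AKR1B10 and the AKR1C genes are known as targets of NRF2, the transcription factor that responds to electrophiles and oxidants. In skin these enzymes act on the local supply of androgens, progesterone, prostaglandins and retinoids.

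The libraries held 62044121 to 73680756 counts. On FPKM (fragments for each kilobase of a gene, relative to all mapped fragments), 8 of 8 basal keratinocyte markers averaged at least 1, and their summed level was 2050.1 to 2166 in the rFGF4 libraries and 2231 to 2553 in the PBS libraries. For dermal fibroblasts it was 0 of 8 markers, with sums of 0.411 to 0.517 in rFGF4 and 0.776 to 0.864 in PBS libraries. For leukocytes it was 1 of 8 (CD68), with sums of 8.16 to 11.0 and 7.72 to 8.86, and for endothelium 1 of 8 (CDH5), with sums of 3.28 to 4.31 and 1.99 to 3.30, in rFGF4 and in PBS libraries in each case. For hepatocytes, a cell type rich in aldo-keto reductases, it was 0 of 8, with sums of 0.593 to 0.773 and 0.745 to 0.794, and ALB, APOA1, APOB, TTR and FGB were listed at 0 in all 8 libraries. The fibroblast marker DPT was also listed at 0 in all of them. The keratinocyte and fibroblast sums thus did not overlap between the groups, and their part in the values below was not tested. The lower keratinocyte sum in rFGF4 libraries came from KRT5 (mean FPKM 834 in rFGF4 and 987 in PBS libraries), KRT14 (958 in rFGF4 and 1093 in PBS) and KRT15 (129 in rFGF4 and 194 in PBS). The other 5 keratinocyte markers had means slightly higher in rFGF4 libraries, such as TP63 (9.61 in rFGF4 and 9.55 in PBS) and ITGB4 (57.0 in rFGF4 and 50.4 in PBS). In such bulk libraries, fewer cells of a type and less RNA per cell cannot be told apart.

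The genes lie on 3 chromosomes and are given here with the coordinates of the table, whose build the labels do not state. AKR1C1 (chromosome 10, 4963253 to 4983283, plus strand), AKR1C2 (4987400 to 5017955, minus strand) and AKR1C3 (5035354 to 5107680, plus strand) stand side by side within 144 kb. AKR1B1 (chromosome 7, 134442356 to 134459284, minus strand) and AKR1B10 (134527567 to 134541412, plus strand) are 68.3 kb apart. AKR1A1 (45550543 to 45570049, plus strand) and AKR7A2 (19303965 to 19312146, minus strand) are both on chromosome 1, far apart. The table's own annotation gives all 7 the term alditol:NADP+ 1-oxidoreductase activity, which it gives to 13 genes in all, and the 7 are the tested ones among these. AKR1B1, AKR1B10 and AKR1C3 carry a retinol dehydrogenase term, and AKR1C1, AKR1C2 and AKR1C3 a progesterone metabolism term.

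On FPKM, which is per gene length, the order of the mean levels over the 8 libraries was AKR1A1 (27.2), AKR1C2 (21.7), AKR1B1 (19.9), AKR7A2 (15.7), AKR1B10 (10.7), AKR1C3 (6.87) and AKR1C1 (4.76). AKR1A1 was the highest of the 7 in all 4 rFGF4 and all 4 PBS libraries. AKR1C2 and AKR1B1 changed places. AKR1C2 was above AKR1B1 in 2 of 4 rFGF4 libraries and in 4 of 4 PBS libraries. AKR7A2 was below AKR1B1 in every library, with overlapping ranges among the rFGF4 libraries. It was above AKR1B10 in every library, with overlapping ranges among the PBS libraries. AKR1B10, AKR1C3 and AKR1C1 followed in that order in all 8 libraries, with no overlap of their ranges within either group. On counts, which are not scaled to gene length, AKR1C2 was above AKR1A1 in every library. AKR1C2 had 9062 to 11369 counts against 6052 to 6897 in rFGF4 libraries, and 12163 to 13323 against 6663 to 8123 in PBS libraries. The sum of the 7 was 94.7 ± 4.78 FPKM in rFGF4 and 119 ± 5.31 FPKM in PBS libraries (mean ± SD, n = 4 each).

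**Figure D1:**
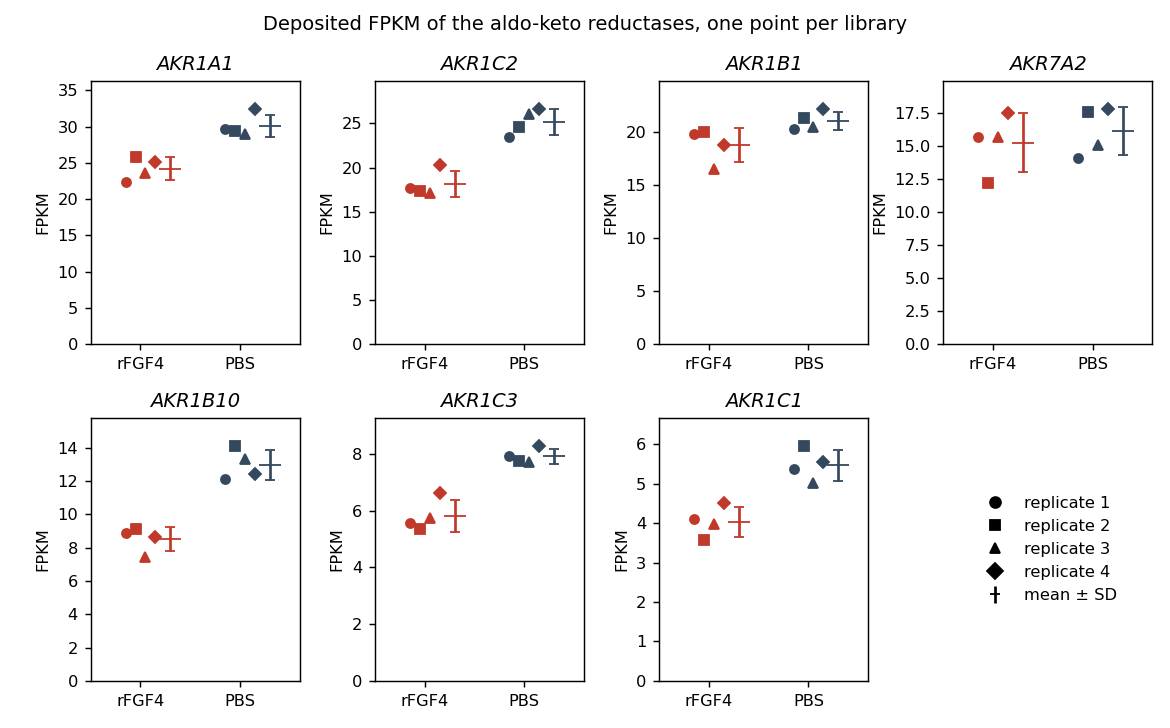
FPKM (vertical axes, from 0) of each aldo-keto reductase, with 1 point per library, rFGF4 on the left and PBS on the right of each panel, and the mean ± SD (n = 4) beside the points. The rFGF4 points lie below the PBS points in 6 of the 7 panels and overlap them for AKR7A2.

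The steroid- and prostaglandin-metabolising AKR1C genes were lower in the libraries labelled rFGF4. AKR1C2, which inactivates the androgen dihydrotestosterone, stood at 17.7, 17.4, 17.1 and 20.3 FPKM in rFGF4 replicates 1 to 4, and at 23.4, 24.6, 26.1 and 26.6 FPKM in PBS replicates 1 to 4. No rFGF4 library reached the lowest PBS library, and rFGF4 replicate 4 was the nearest to it. The log2 fold change of rFGF4 over PBS was −0.45 (SE 0.09, edgeR), or 73.4% of the PBS level.

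AKR1C3, which makes testosterone from androstenedione and prostaglandin F from prostaglandin D, stood at 5.56, 5.37, 5.73 and 6.63 FPKM in rFGF4 libraries, and at 7.94, 7.76, 7.70 and 8.28 FPKM in PBS libraries. The groups were again apart, and the PBS libraries were the tighter of the groups, with a coefficient of variation of 3.29% against 9.62% in rFGF4 libraries. The log2 fold change was −0.42 (SE 0.10).

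AKR1C1, which inactivates progesterone, stood at 4.11, 3.57, 3.98 and 4.50 FPKM in rFGF4 libraries, and at 5.37, 5.96, 5.01 and 5.55 FPKM in PBS libraries. The groups were separated by 0.507 FPKM, between rFGF4 replicate 4 and PBS replicate 3. The log2 fold change was −0.41 (SE 0.10). AKR1C1 had more counts than AKR1C3 (2678 to 3421 against 1800 to 2252 in rFGF4 libraries, and 3235 to 4131 against 2220 to 2724 in PBS libraries), but these are not scaled to gene length.

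Whether the counting used strand is not stated, and an antisense row that overlaps AKR1C2 had at most 17 counts in any library, against at least 9062 for AKR1C2. The 3 AKR1C genes are close paralogs and may share reads, so their separate levels are uncertain. Of their summed FPKM, AKR1C2 made up 64.8 ± 0.962% in rFGF4 and 65.2 ± 1.58% in PBS libraries (SD, n = 4 each). AKR1C3 made up 20.8 ± 0.542% in rFGF4 and 20.6 ± 0.745% in PBS libraries, and AKR1C1 14.4 ± 0.661% in rFGF4 and 14.2 ± 1.13% in PBS libraries. Each of these shares overlapped between the groups. The sum itself was 27.4, 26.3, 26.8 and 31.4 FPKM in rFGF4 libraries and 36.8, 38.3, 38.8 and 40.4 FPKM in PBS libraries. With the counts of the 3 genes added up before the fit, the log2 fold change was −0.44, as it was with AKR1C1 and AKR1C2 alone added up.

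**Figure D2:**
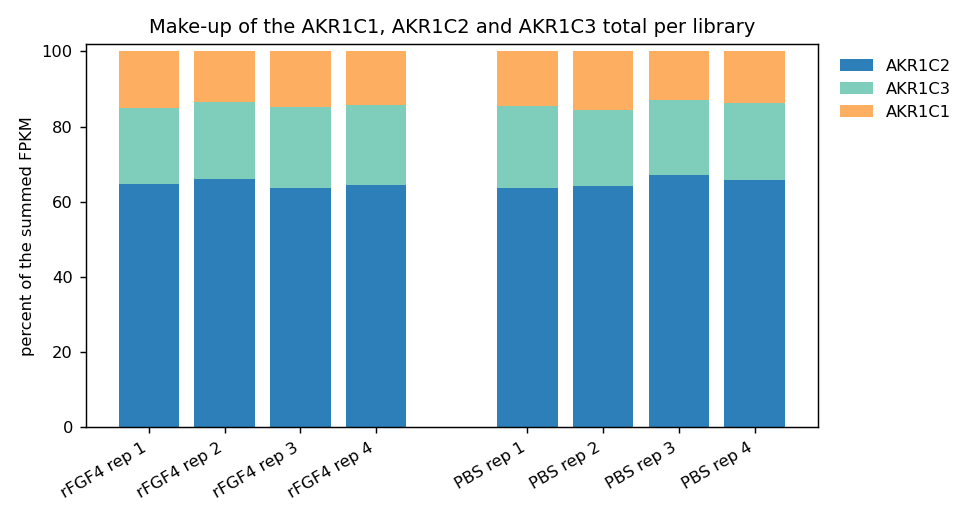
Percent of the summed FPKM of AKR1C1, AKR1C2 and AKR1C3 (vertical axis) that each gene makes up in each library, rFGF4 libraries on the left and PBS libraries on the right. AKR1C2 holds 63.8% to 67.2% in every library of both groups.

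AKR1B10 and AKR1B1 are relatives that share a retinol dehydrogenase term, and AKR1B10 had the lowest fold change of the 7 genes. AKR1B10, which reduces retinal and isoprenoid aldehydes, stood at 8.85, 9.09, 7.45 and 8.63 FPKM in rFGF4 libraries, and at 12.1, 14.1, 13.3 and 12.4 FPKM in PBS libraries. The highest rFGF4 library was 2.96 FPKM below the lowest PBS library. The log2 fold change was −0.58 (SE 0.09), or 66.7% of the PBS level. AKR1B15, its close paralog, had 46, 0, 8 and 0 counts in rFGF4 libraries and 13, 8, 0 and 20 counts in PBS libraries, against at least 1086 counts for AKR1B10. With the counts of both added up, the fold change of AKR1B10 was again −0.58.

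AKR1B1, the aldose reductase that turns glucose into sorbitol, stood at 19.8, 20.0, 16.5 and 18.7 FPKM in rFGF4 libraries, and at 20.2, 21.3, 20.4 and 22.1 FPKM in PBS libraries. The groups did not overlap, but only 0.148 FPKM separated rFGF4 replicate 2 and PBS replicate 1. The log2 fold change was −0.14 (SE 0.07), with a 95% interval from −0.30 to 0.02.

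The general aldehyde reductases AKR1A1 and AKR7A2 differed in how far the groups were apart. AKR1A1, which reduces glucuronate among many aldehydes, stood at 22.4, 25.8, 23.6 and 25.1 FPKM in rFGF4 libraries, and at 29.7, 29.4, 29.0 and 32.4 FPKM in PBS libraries. The groups were 3.18 FPKM apart, and the log2 fold change was −0.29 (SE 0.07), or 81.8% of the PBS level.

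AKR7A2, which reduces succinic semialdehyde and aflatoxin aldehydes, stood at 15.7, 12.2, 15.7 and 17.5 FPKM in rFGF4 libraries, and at 14.1, 17.6, 15.1 and 17.8 FPKM in PBS libraries. The groups overlapped, and only rFGF4 replicate 2 was below all PBS libraries. The log2 fold change was −0.05 (SE 0.14), with a 95% interval from −0.38 to 0.28, and became 0.06 without rFGF4 replicate 2 and 0.01 without PBS replicate 4.

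**Figure D3:**
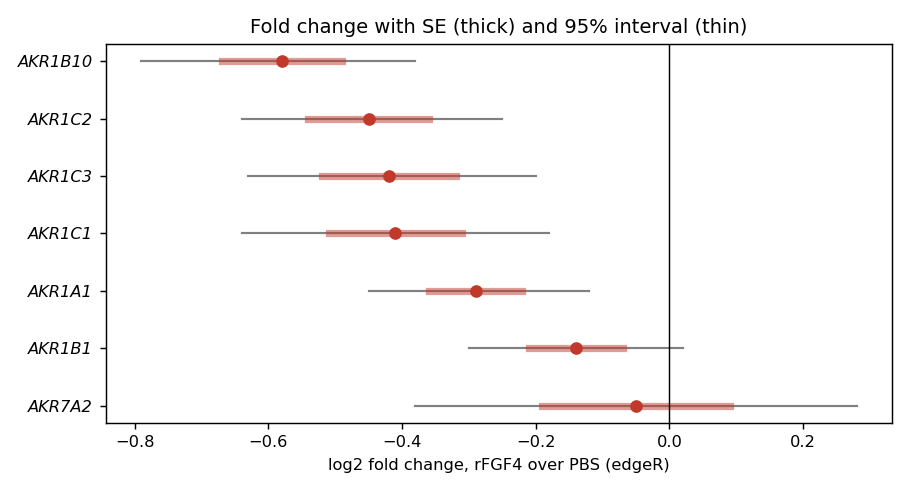
Log2 fold change of rFGF4 over PBS from edgeR (horizontal axis) for each aldo-keto reductase, with the SE as a thick bar and the 95% interval as a thin line. The points run from −0.58 for AKR1B10 to −0.05 for AKR7A2. The genes were chosen with these values known, so the intervals describe the libraries and are not a test.

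All 7 genes passed the filter on low values (a mean FPKM of 1 over the 8 libraries), each with a mean above it in both groups. The 7 fold changes were all negative, with a median of −0.41, while the median of the 11536 tested genes was 0.00. The rFGF4 FPKM values lay wholly below the PBS values for 6 of 7 genes, where 10.4% of the tested genes did so, 8.76% lay wholly above and 19.2% were apart in either direction. In the edgeR quasi-likelihood test with Benjamini-Hochberg adjustment over all tested genes, 5 of 7 were called lower and 0 higher, where 4.54% of the tested genes were called lower, 5.49% higher and 10.0% in either direction. Since the genes were chosen with this contrast known, nothing is read from these counts. The count of 5 fell to 2 without rFGF4 replicate 1, 2 or 3, or PBS replicate 1, 2 or 4, to 3 without PBS replicate 3, to 3 under a mean FPKM filter of 0.1 or filterByExpr, and to 2 with no filter. Over all tested genes, those called lower also fell, from 524 to between 275 and 454, in these runs with a library left out. They were 552 under a mean FPKM filter of 0.1, 536 under filterByExpr and 410 with no filter.

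The libraries of a group were not alike in all 7 genes. In rFGF4 replicate 4, AKR1C1, AKR1C2, AKR1C3 and AKR7A2 were each the highest of their group, at 82.2%, 80.6%, 83.7% and 109% of their PBS means. In rFGF4 replicate 3, AKR1B10, AKR1C2 and AKR1B1 were the lowest of theirs, at 57.4%, 67.8% and 78.6%. rFGF4 replicate 4 had the lowest mean correlation with its own group over all tested genes (0.967, against 0.970 to 0.974 for the other rFGF4 libraries). Without it, the log2 fold change of AKR1C2 was −0.53 and that of AKR1C3 −0.51. After each group's mean was taken out of log2 CPM (counts relative to the TMM-scaled library total), the deviations of the AKR1C pairs had Pearson r of 0.63 to 0.85 over the 8 libraries, and those of AKR1B1 and AKR1B10 had 0.70. The highest r of all pairs was between AKR1C1 and AKR7A2 (0.91), which are not close paralogs, and AKR7A2 had 0.78 with AKR1C3 and 0.74 with AKR1C2. The lowest was between AKR1B10 and AKR1C3 (0.01). These coefficients describe 8 libraries with shared scaling and carry no test.

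**Figure D4:**
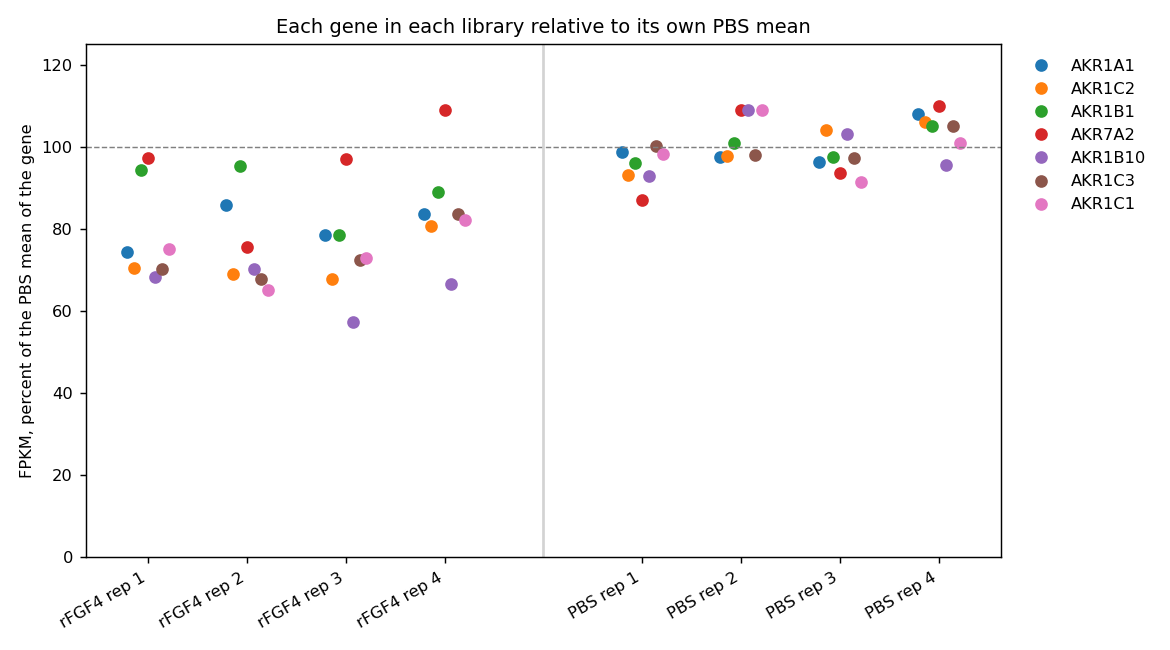
FPKM of each gene in each library as a percent of the PBS mean of that gene (vertical axis, from 0), with rFGF4 libraries on the left, PBS libraries on the right and a dashed line at 100%. In rFGF4 libraries AKR1B10 lies between 57.4% and 70.1% and AKR7A2 between 75.5% and 109%.

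Many other genes had deviations like these. For each of the 7 genes, 22 to 417 of 11499 tested genes outside the family had r above 0.9 with it. The 3 most alike were TMEM179B, H1FX and TUFM for AKR1C3 (r of 0.993 each), NPIPA7, PHPT1 and PPP4C for AKR1C2 (0.982 to 0.993), and GNPTG, MLX and CHMP4B for AKR1C1 (0.979 to 0.992). They were SLC2A1, ACTR10 and MARCH9 for AKR7A2 (0.992 to 0.996), TMEM120A, AC000123 and APBA3 for AKR1A1 (0.97 to 0.979), HLA-H, AC026271 and RAB6A for AKR1B1 (0.95 to 0.982), and AC009779, HMGA1P3 and MYLK-AS1 for AKR1B10 (0.944 to 0.949).

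The rest of the family was barely counted. The table holds 24 other aldo-keto reductase rows, pseudogenes and the potassium channel beta subunits KCNAB1 to KCNAB3 included, of which 0 passed the filter on low values and 12 had 0 counts in all 8 libraries. A count of 0 allows up to 12 counts per library (3 fragments at about 4 counts each), or 0.163 to 0.193 CPM, for counting error only. The liver gene AKR1C4 had 2 counts in rFGF4 replicate 1, 2 in PBS replicate 1 and 0 elsewhere. AKR1D1, a liver steroid reductase of bile acid synthesis, had 0, 8, 0 and 4 counts in rFGF4 libraries and 4, 0, 0 and 4 in PBS libraries. 4 of the 24 rows reached a mean FPKM of 0.1. AKR7A3, a paralog of AKR7A2, stood at 0.236 to 0.380 FPKM in rFGF4 and 0.105 to 0.575 FPKM in PBS libraries. AKR7L stood at 0.299, 0.255, 0.0733 and 0.294 FPKM in rFGF4 libraries, and at 0.136, 0.102, 0.0751 and 0.134 FPKM in PBS libraries. KCNAB2 stood at 0.0884 to 0.262 FPKM in rFGF4 and 0.140 to 0.321 FPKM in PBS libraries, and KCNAB3 at 0.253 to 0.362 FPKM in rFGF4 and 0.157 to 0.264 FPKM in PBS libraries. All 4 overlapped between the groups.

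The gene lists that follow were chosen with earlier results of these data known, so their counts of calls and p-values are a description. The NRF2 regulators did not move together. Of 10 tested, 0 were called by edgeR, 4 had an unadjusted p under 0.05, 3 were called by DESeq2 and 1 by limma on log2(FPKM + 1), and their median log2 fold change was −0.01. NFE2L2, which encodes NRF2, stood at 19.8, 5.35, 4.80 and 17.7 FPKM in rFGF4 libraries, and at 21.1, 20.4, 21.3 and 20.2 FPKM in PBS libraries. All 4 rFGF4 libraries were below the PBS libraries, replicates 2 and 3 far more so than 1 and 4, and its log2 fold change of −0.77 (SE 0.46) did not pass (edgeR adjusted p = 0.347). KEAP1, which holds NRF2 back, had a log2 fold change of −0.25 (SE 0.09, adjusted p = 0.122) and passed only without PBS replicate 1.

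Of 28 tested NRF2 targets outside the family, 3 fell, 2 rose and 23 did not pass, with a median of −0.11, where 4.54% of all tested genes were called lower and 5.49% higher. GCLC, the rate-limiting enzyme of glutathione synthesis, fell by 0.45 on the log2 scale (SE 0.09, edgeR adjusted p = 0.019), to 4.60 ± 0.667 FPKM in rFGF4 libraries, against 6.39 ± 0.423 FPKM in PBS libraries. ME1, a malic enzyme that yields NADPH, fell by 0.35 (SE 0.05, adjusted p = 0.0063). The epoxide hydrolase EPHX1 fell by 0.41 (SE 0.10, adjusted p = 0.038). ABCC3, an exporter of conjugates, rose by 0.44 (SE 0.06, adjusted p = 0.00301), and the taurine transporter SLC6A6 by 0.46 (SE 0.07, adjusted p = 0.00557). The call for GCLC ended without rFGF4 replicate 3 or PBS replicate 2 or 3. That for EPHX1 ended without any 1 library except rFGF4 replicate 4, and under a mean FPKM filter of 0.1, filterByExpr or no filter.

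The other carbonyl-metabolising enzymes had 4 of 21 tested genes lower, 1 higher and 16 that did not pass, with a median of −0.15, beside 4.54% lower and 5.49% higher among all tested genes. PTGR1, a prostaglandin and leukotriene reductase, fell by 0.36 (SE 0.05, edgeR adjusted p = 0.00453), to 16.8 ± 0.699 FPKM in rFGF4 libraries, against 22.0 ± 0.986 FPKM in PBS libraries. The fatty aldehyde dehydrogenase ALDH3A2 fell by 0.46 (SE 0.08, adjusted p = 0.00696). ALDH3B2 fell by 1.11 (SE 0.18, adjusted p = 0.00652), to 0.755 ± 0.149 FPKM in rFGF4 libraries, against 1.67 ± 0.189 FPKM in PBS libraries. Its mean over the 8 libraries (1.21 FPKM) passed the filter of 1 only through the PBS libraries. The call for ALDH3B2 remained in all 18 other settings, those with a lower filter or none included. ALDH7A1 fell by 0.27 (SE 0.05, adjusted p = 0.0133), a call that ended without PBS replicate 2. The mitochondrial ALDH1B1 rose by 0.52 (SE 0.08, adjusted p = 0.00533). Of 7 tested glutathione transferases, 0 were called by edgeR, DESeq2 or limma, and 0 had an unadjusted p under 0.05.

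Prostaglandins, retinoids and steroids are substrates of the AKR1C enzymes and AKR1B10, and the counts for the lists of genes that act on them stand beside 10.0% of all tested genes called in either direction. In the prostaglandin list, 2 of 9 tested genes fell and 7 did not pass, with a median of 0.05. The prostaglandin reductase genes PTGR1, called lower, and PTGR2, not called, were placed with the carbonyl-metabolising enzymes and are not counted here. HPGD, which breaks prostaglandins down, stood at 2.41, 2.53, 2.26 and 2.33 FPKM in rFGF4 libraries, and at 4.17, 5.56, 4.72 and 4.85 FPKM in PBS libraries. It fell by 0.99 (SE 0.10, edgeR adjusted p = 0.000987), and the call remained in all 18 other settings. PTGER2, a receptor of prostaglandin E, fell by 0.36 (SE 0.09, adjusted p = 0.0348), a call that ended without any 1 library except PBS replicate 4 and under a mean FPKM filter of 0.1, filterByExpr or no filter.

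In the retinoid list, 1 of 9 tested genes rose, 1 fell and 7 did not pass, with a median of 0.01. RDH10, which oxidises retinol to retinal, fell by 0.41 (SE 0.06, edgeR adjusted p = 0.00417), to 5.51 ± 0.321 FPKM in rFGF4 libraries, against 7.45 ± 0.251 FPKM in PBS libraries. SDR16C5, an epidermal retinol dehydrogenase, rose by 0.73 (SE 0.16, adjusted p = 0.0267), a call that ended without rFGF4 replicate 3 or 4, without PBS replicate 2 or 3, and with no filter. In the steroid list, 1 of 11 tested genes rose, 1 fell and 9 did not pass, with a median of −0.16. HSD11B2, which inactivates cortisol, rose by 0.56 (SE 0.14, adjusted p = 0.0372), and HSD17B4, a peroxisomal enzyme, fell by 0.23 (SE 0.05, adjusted p = 0.0244). The call for HSD11B2 ended without rFGF4 replicate 1, 3 or 4 or any 1 PBS library, and under a mean FPKM filter of 0.1 or none. That for HSD17B4 ended without rFGF4 replicate 1 or 3 or PBS replicate 1, 2 or 4, and with no filter.

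**Figure D5:**
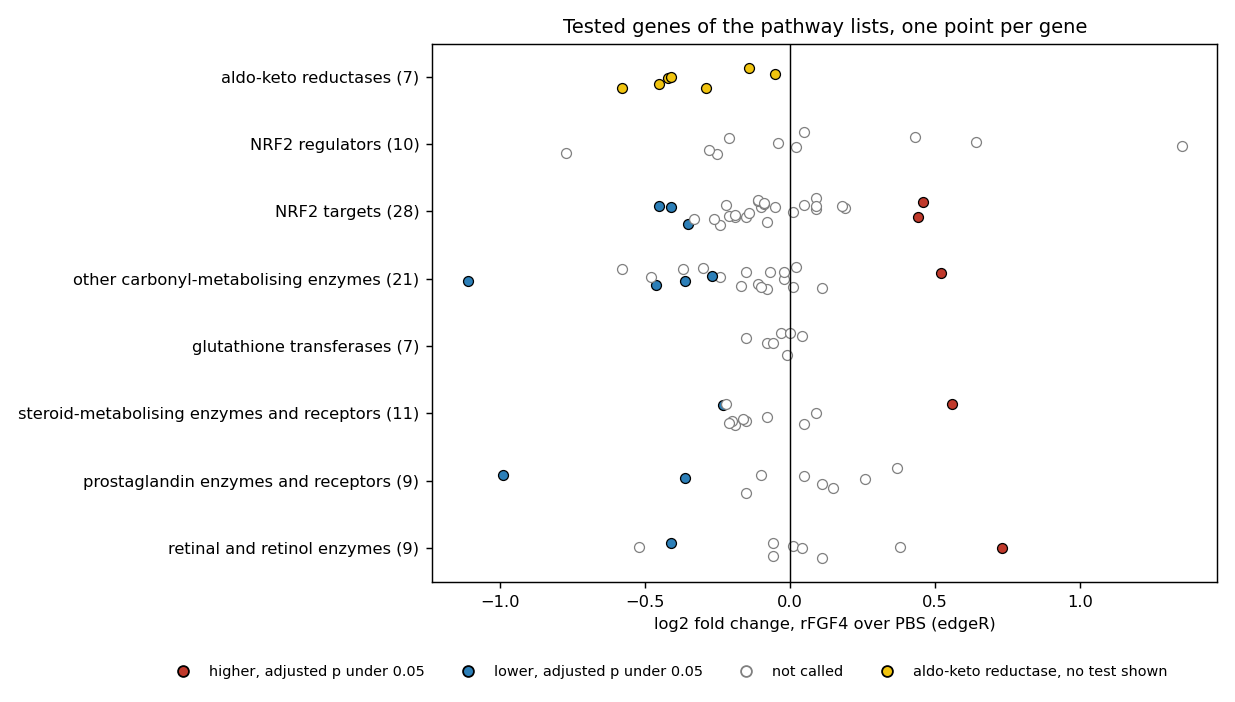
Log2 fold change of rFGF4 over PBS from edgeR (horizontal axis) for each tested gene of the lists, with the number of tested genes in brackets and vertical jitter within a row. Filled red and blue points passed the test as higher or lower, and the yellow points of the aldo-keto reductases run from −0.58 to −0.05 with no test shown.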

How the data were processed

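Per the file headers, the authors deposited FPKM and whole-number counts for each library. Zeros were given as 0.0001 FPKM. The submitters' processing notes name HISAT2 2.0 and StringTie 1.3.0 without roles. The genome build, annotation and use of strand were not stated there. The deposited counts behave as estimated counts: 9781 entries were at 4, with 3485 at 3 and 1977 at 5, so 1 fragment was taken as about 4 counts. Columns headed C were taken as the PBS samples and those headed FGF4 as the rFGF4 samples, matched by replicate number.

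Y-linked genes, XIST and TSIX (521 in all) were dropped. Counts of the 11536 genes whose FPKM averaged 1 or more were tested with edgeR 4.0.16 in R 4.3.3 (TMM scaling, quasi-likelihood test, two-sided, Benjamini-Hochberg threshold 0.05, no covariate), rFGF4 over PBS. SEs are those implied by the test statistic. Calls for the aldo-keto reductases are given as counts only. Levels are FPKM, as mean ± SD over 4 libraries. Intervals cover 95%. Replicates of a group differed by more than sampling noise.

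The aldo-keto reductases and the pathway lists were chosen with earlier results of these data known. Named genes are the 7, other family rows with a mean FPKM of at least 0.1, up to 4 called genes per list and direction, NFE2L2 and KEAP1, and the 3 genes most alike to each. AKR1B15, AKR1C4, AKR1D1, MAFF, MAFG, MAFK, GPX2, PTGR2 and the marker genes are named outside this rule. Alternatives were other scalings, filters, DESeq2 1.42.0, limma 3.58.1 on log2(FPKM + 1) and log2(FPKM + 0.1), a replicate block, each library left out, summed paralogs and, chosen after seeing the data, counts divided by 4.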

Additional observations from a re-analysis of the deposited data

Results flagged for a closer look

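Of 58 groups of 4 libraries checked over 29 genes, 1 held a library apart from the other members of its group, where chance gives about 1 in 20. ME1 stood at 14.1 FPKM in PBS replicate 3, with the other PBS libraries at 13.2 to 13.3 FPKM. Several genes of the lists that were not among the 29 also had a library apart, in rFGF4 or in PBS libraries. MAFF and MAFG, small partners of NRF2, were among these and not the only ones. MAFG stood at 2.50 FPKM in rFGF4 replicate 2, with the other rFGF4 libraries at 8.67 to 9.03 FPKM. None of the 7 aldo-keto reductases had such a library.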

How the results depend on the processing

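Of the 7 aldo-keto reductases, 6 kept a negative fold change in every alternative run, from −0.62 to −0.53 for AKR1B10, −0.53 to −0.41 for AKR1C2, −0.51 to −0.36 for AKR1C3, −0.49 to −0.34 for AKR1C1, −0.33 to −0.24 for AKR1A1 and −0.17 to −0.09 for AKR1B1. AKR7A2 ran from −0.15 to 0.06. Over all tested genes, 633 were called higher and 524 lower. DESeq2 called 982 and 846. With 1 library left out, 326 to 622 were called higher and 275 to 547 lower. With the replicate number as a block, 561 were called higher and 452 lower, and 4 of the 7 aldo-keto reductases were called. The deviations of same-numbered libraries had r of 0.0123, −0.0404, −0.0198 and 0.199 for replicates 1 to 4. These values cannot decide whether same-numbered libraries share a source, which the labels do not state. The calls for EPHX1, PTGER2 and HSD11B2 ended under the block. NRF2 targets called lower ran from 1 to 5 with 1 library left out, against 3. Other carbonyl-metabolising enzymes called lower were 7 with DESeq2, against 4. NRF2 regulators called lower were 2 with DESeq2, against 0. Those called higher were 1 with DESeq2 and 1 without rFGF4 replicate 3, against 0. The causes were not tested. Paralogous AKR1C counts cannot be separated beyond what the deposited counting did.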

Other observations

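Some genes of the lists differed between libraries of a group by more than the aldo-keto reductases did, and were chosen for mention after their values were seen. MAFF, a small partner of NRF2, stood at 4.12, 3.94, 0.934 and 4.37 FPKM in rFGF4 libraries, and at 0.607, 1.45, 1.73 and 1.54 FPKM in PBS libraries. Its log2 fold change was 1.35 (SE 0.49, edgeR adjusted p = 0.127). GPX2, a glutathione peroxidase, stood at 115, 26.5, 47.5 and 55.0 FPKM in rFGF4 libraries, and at 55.8, 46.6, 53.6 and 63.5 FPKM in PBS libraries. Low values of NFE2L2 and MAFF thus met in rFGF4 replicate 3, while rFGF4 replicate 2 was low for NFE2L2 and not for MAFF. The small partners MAFG (2.50 FPKM) and MAFK (3.82 FPKM) had their lowest rFGF4 values in replicate 2. Both also had their lowest PBS values in PBS replicate 2 (2.39 FPKM for MAFG and 2.21 FPKM for MAFK).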
